A study of Mus musculus with 40 samples.

Results

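Casp9, the gene of the initiator caspase of the mitochondrial death pathway, was measured with 7 partner genes, Apaf1, Bax, Bak1, Bcl2, Bcl2l1, Cycs and Diablo, in the mouse hippocampus. Members were all probes that the platform annotation gives these 8 symbols. They numbered 20 of the 25697 probes on the array, and 7 of the 8 genes had at least 1 probe. A probe was tested when its detection p was at most 0.01 on at least 4 of the 40 arrays; 12 of the 20 probes, from 6 genes, passed, against 13589 of 25697 probes in all. Casp9 was chosen by its low signal in DBA mice in these same arrays, so its levels in every comparison that involves DBA are described without a test, and counts of called members are given over the other 11 tested probes.

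The samples were hippocampi of 40 mice aged 12 months, 1 mouse per Illumina mouse Ref-8 array. Of these, 28 mice on 5 mixed backgrounds carried a transgene (Tg) for the amyloid precursor protein, APP. There were 7 DBA-rich Tg mice (75% DBA, 9% SJL, 16% B6), 3 Tg mice with 50% DBA (42% SJL, 8% B6), 6 SJL-rich Tg mice (69% SJL, 31% B6), 6 SJL-richest Tg mice (84% SJL, 16% B6) and 6 B6-rich Tg mice (62.5% B6, 37.5% SJL). The last 3 backgrounds are called DBA-free here. The other 12 mice were non-transgenic inbred mice, 4 each of the strains that the labels name dba2, sjl and b6, called DBA, SJL and B6. The labels give the transgene only as APP Tg; its promoter and line, and the sex of the mice, are not given in the sources used here. No inbred mouse carried it.

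In the intrinsic pathway, stress opens pores of Bax and Bak1 in the outer mitochondrial membrane, and cytochrome c (Cycs) and Diablo leave the organelle. Cytochrome c binds Apaf1, and the resulting apoptosome activates caspase-9, which cleaves the executioner caspases. Bcl2 and Bcl2l1 (Bcl-xL) hold the pores closed, and Diablo relieves the block that inhibitor of apoptosis proteins place on caspases. In neurons the pathway removes surplus cells during development and is held in check in the adult.

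Some features of the whole series touch every result. The arrays numbered 1 to 16 and 17 to 40 stood apart. On the first principal component, which held 35.2% of the variance, they lay at -38.6 to -20.9 and at 7.16 to 37.1. Tg backgrounds were therefore tested against each other only within an array set. All inbred arrays lie in the later set, and DBA-rich Tg mouse 1 (array 10) lies in the earlier one. The deposited table of numbered arrays, used here, and the authors' value table, keyed by sample, held the same array for all 28 Tg mice but not for 8 of the 12 inbred mice, and 6 of these 8 change strain, so each inbred result below depends on which table is right. Between 41.5% and 50.0% of probes were detected per array. Tissue markers were present: 6 of 7 excitatory neuron markers, 5 of 5 astrocyte markers and 6 of 7 oligodendrocyte markers had a tested probe. Since the tissue is bulk, fewer cells of a type and less RNA per cell cannot be told apart.

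Casp9 had 3 probes, all annotated to 1 transcript (NM_015733), and 1 of them, ILMN_1217061, was detected. In log2 normalized signal it read 8.96, 9.00, 4.60, 9.02, 8.90, 4.67 and 4.54 in DBA-rich Tg mice 1 to 7, and 8.79, 8.89 and 9.01 in the 3 Tg mice with 50% DBA. The 18 DBA-free Tg mice lay between 9.60 and 9.99, with a median of 9.83. Among inbred mice it read 4.71, 4.56, 4.80 and 4.87 in DBA, 9.95, 9.84, 9.75 and 9.80 in SJL and 9.62, 9.70, 9.72 and 9.51 in B6.

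These values form 3 levels that do not overlap. The probe was detected on 0 of 4 DBA arrays and on all 8 SJL and B6 arrays; against the lowest detected signal, DBA was at least 15.4-fold lower than B6 and at least 17.7-fold lower than SJL. Every Tg mouse with 50% DBA lay between the levels, with a median 0.93 log2 units, or 1.91-fold, below the DBA-free Tg median. That DBA-free median spans both array sets. Within the earlier set the mean difference was -0.89 log2 units. The 7 DBA-rich mice were split. Mice 1, 2, 4 and 5 lay at 8.90 to 9.02, within or just above the span of the 50% DBA mice, while mice 3, 6 and 7 were not detected and lay at 4.54 to 4.67, within or just below the span of inbred DBA. Before normalization the probe gave 436.9, 534.1, 2.5, 539.6, 405.3, 4.8 and -0.1 intensity units in DBA-rich mice 1 to 7, against 747 to 1344 in DBA-free Tg mice.

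**Figure D1:**
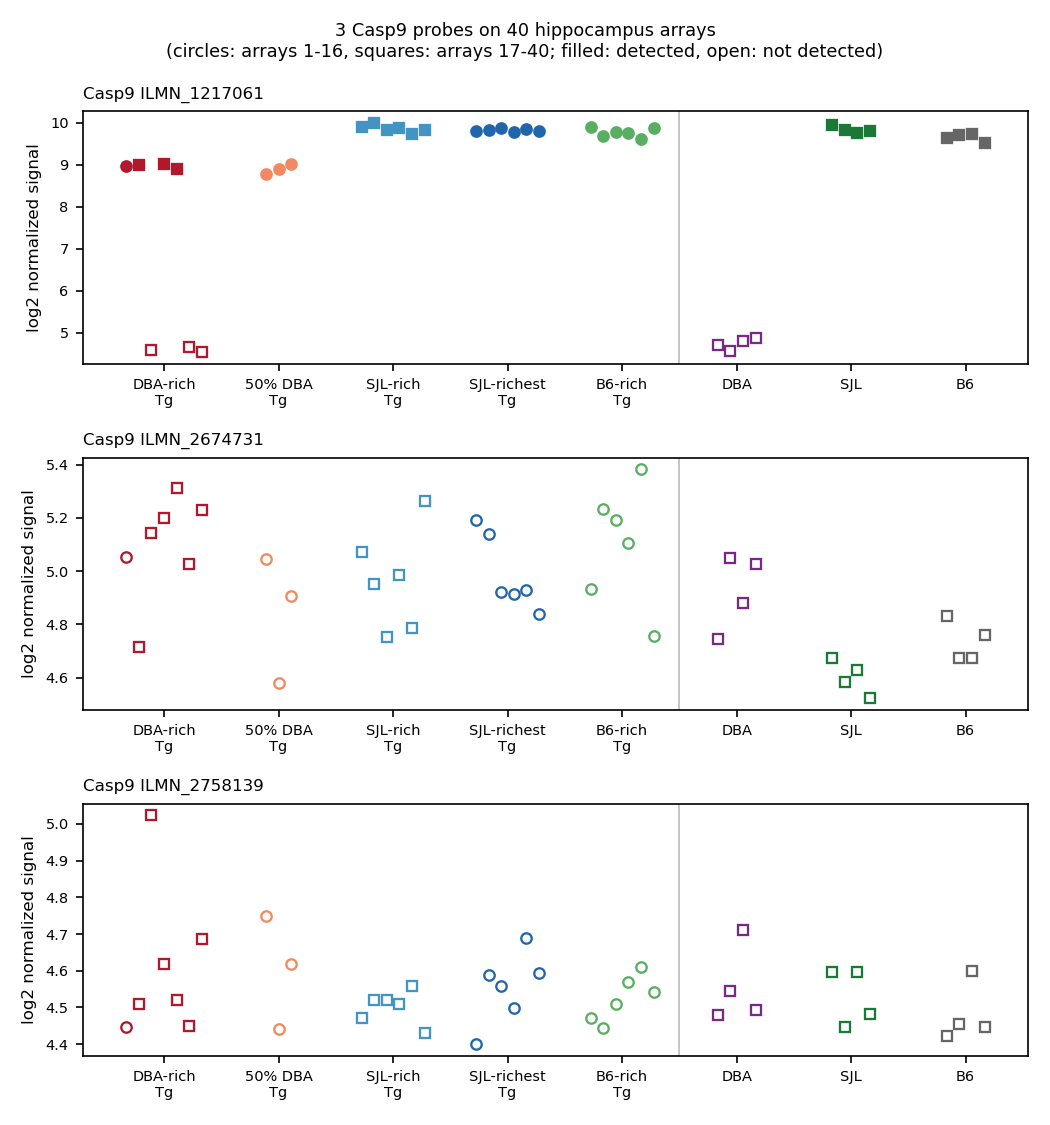
Log2 normalized signal (y axis) of the 3 Casp9 probes, 1 panel each with its own scale, in 40 mice by group (x axis). Each point is 1 array; circles are arrays 1 to 16, squares arrays 17 to 40, and open points were not detected. In the top panel the 4 DBA arrays and 3 of 7 DBA-rich arrays lie near the background, 4 DBA-rich and 3 arrays with 50% DBA near 9, and the others between 9.51 and 9.99; both lower panels hold only undetected points.

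The mean difference was -4.90 log2 units for DBA against B6 and -5.10 for DBA against SJL. In the later array set it was -3.07 for DBA-rich against SJL-rich Tg mice (6 mice each, 3 of 6 DBA-rich mice detected), and in the earlier set -0.89 for 50% DBA against DBA-free Tg mice (3 against 12). The DBA-rich mean stands for no single mouse, since no DBA-rich mouse lay between 4.67 and 8.90. Sorted by the authors' value table, which keys inbred arrays by sample, the probe's intensity was 2.6, 10.8, 791.5 and 834.4 in DBA, 6.6, 13.8, 846.2 and 848.2 in SJL and 729.6 to 997.5 in B6; the low arrays then belong to both strains, and the difference of DBA against SJL shrinks to -0.06. The Tg levels do not depend on that choice.

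Where no DBA alleles were involved, Casp9 differences were small in the table of numbered arrays. Neither SJL against B6 nor SJL-richest against B6-rich Tg passed. The fit of SJL-rich Tg against SJL also held the split DBA-rich mice. Its SE for Casp9 was 0.74 log2 units, too wide for the test to be read, so only the values are given. Sorted by the authors' value table, the probe's intensity was 6.6, 13.8, 846.2 and 848.2 in SJL and 729.6 to 997.5 in B6. The size and direction of both comparisons with inbred SJL therefore depend on which table is right. In the numbered arrays SJL exceeded B6 by 0.20 ± 0.08 log2 units (SE), with no overlap of the 4 arrays on each side. The adjusted p of that difference was 0.145 by limma. SJL-richest against B6-rich Tg mice differed by 0.06 ± 0.06 (adjusted p = 0.679, limma), and SJL-rich Tg mice overlapped inbred SJL mice, at 9.73 to 9.99 against 9.75 to 9.95. No Casp9 slope on amyloid-beta is read from the DBA-rich mice, because their values fall into separate levels; the log10 levels of amyloid-beta 40 (Abeta40) in mice 1 to 7 were 3.97, 3.89, 4.12, 4.17, 4.60, 4.33 and 3.86.

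The other Casp9 probes gave no second reading. ILMN_2674731 and ILMN_2758139 were detected on 0 of 40 arrays, with log2 signals of 4.52 to 5.38 and 4.40 to 5.02, so the pattern rests on 1 probe. Probe sequences were not at hand, so whether a sequence difference under that probe lowers its signal in DBA was not tested. The values are therefore those of a probe signal, and the amount of Casp9 RNA is not read from them.

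The genes on either side of Casp9 on chromosome 4 did not share its pattern. Its 6 nearest protein-coding neighbours with a tested probe were Spen, Slc25a34 and Dnajc16 on one side and Tmem51, Kazn and Pdpn on the other. None of their 6 probes was called in any of the 9 comparisons, in which 0% to 15.9% of all tested probes were called. Nothing is read from that count with so few probes, and the sizes of the differences are given instead. Dnajc16, the adjacent gene, averaged 9.56 ± 0.06 in DBA and 9.46 ± 0.09 in B6 (SD, n = 4 each). Pdpn, which encodes podoplanin, had the widest DBA against B6 difference of the 6, at 0.58 ± 0.24 (SE; adjusted p = 0.161, limma).

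Over the 24 later arrays, the probes whose levels followed Casp9 most closely were Bhlhe40, Polr1a, Mrpl35, Dcp1b and Tceanc2, with Pearson r from 0.969 to 0.988. These arrays share 1 normalization and hold the low DBA and DBA-rich mice that set the correlation, so r is given as a description. Bhlhe40 encodes a basic helix-loop-helix repressor, Polr1a the largest subunit of RNA polymerase I, Mrpl35 a mitochondrial ribosomal protein and Dcp1b an mRNA decapping factor. The first 4 lie on chromosome 6 and Tceanc2 on chromosome 4, where Casp9 lies. Polr1a read 6.98, 4.57, 7.06, 6.99, 4.51 and 4.77 in DBA-rich mice 2 to 7, with mice 3, 6 and 7 low, as for Casp9. These mice were among the arrays by which the probe was picked, so the match follows from the choice.

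In DBA-rich mouse 1, which lies on 1 of the 16 earlier arrays, the genes of the 2 chromosomes parted. It had Casp9 at 8.96 and Tceanc2 at 6.08, both detected, but Polr1a at 4.71, Mrpl35 at 4.55 and Bhlhe40 at 5.19, none of them detected. Dcp1b was detected there at 5.64, its lowest value among the DBA-rich mice. The member probes themselves did not rise with Casp9. Over the same 24 arrays r ran from -0.49 for Bcl2 ILMN_1249366 to 0.05 for Bcl2l1 ILMN_2647885, and only the latter was above 0.

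**Figure D2:**
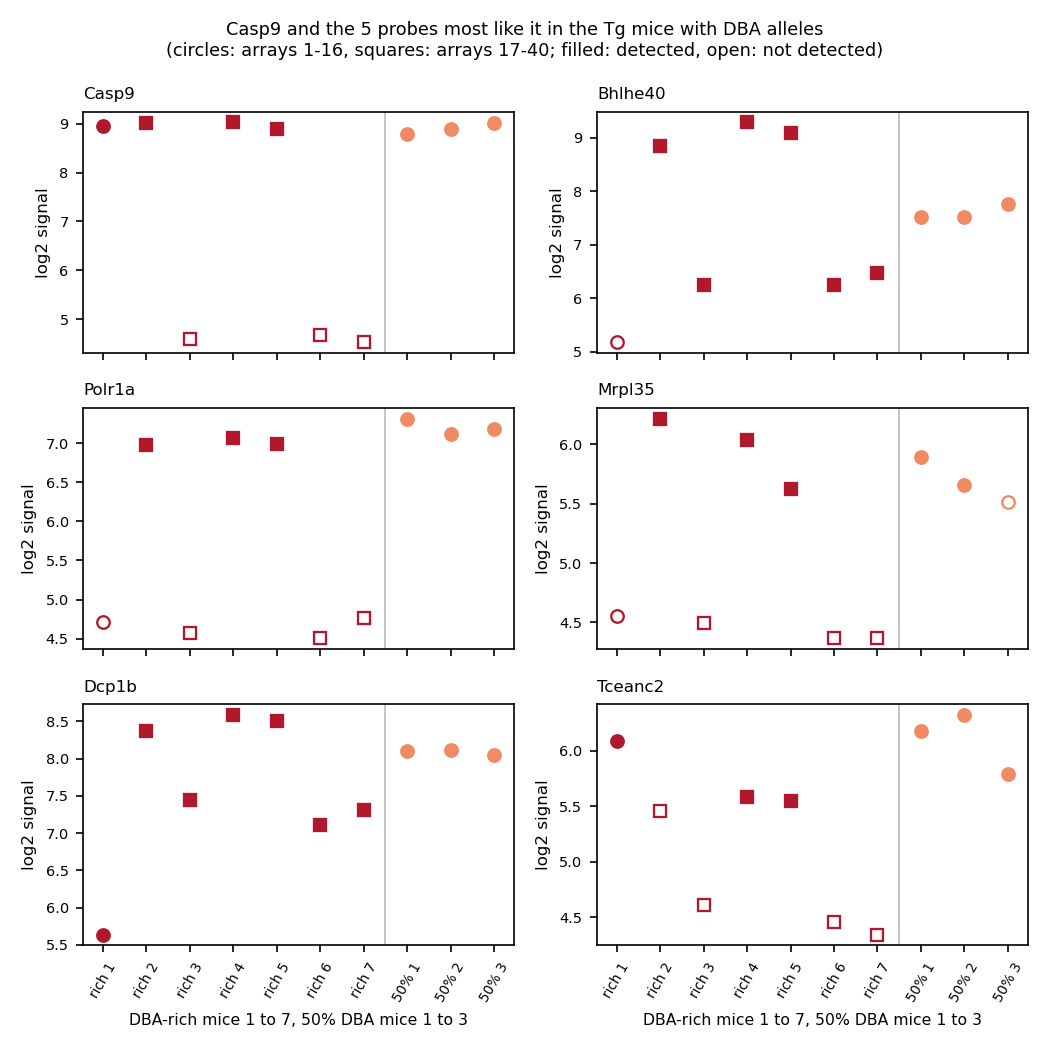
Log2 normalized signal (y axis) of Casp9 and of the 5 probes most like it, in DBA-rich Tg mice 1 to 7 and 50% DBA Tg mice 1 to 3 (x axis). Circles are arrays 1 to 16, squares arrays 17 to 40, and open points were not detected. Mice 3, 6 and 7 are low for all 6 genes, whereas mouse 1 is high for Casp9 and Tceanc2 and low for Bhlhe40, Polr1a, Mrpl35 and Dcp1b. All DBA-rich mice except mouse 1 were among the arrays by which the 5 probes were picked.

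The apoptosome partner of Casp9, Apaf1, was detected on all 40 arrays by both of its probes, which are annotated to 2 transcripts. ILMN_3143577 ranged from 9.11 to 10.06 and ILMN_1228561 from 6.85 to 8.04. Their largest strain difference was 0.40 ± 0.14 and 0.39 ± 0.13 for DBA against SJL (SE; adjusted p = 0.102 and 0.0825, limma), and the arrays of these strains overlapped. Neither Apaf1 probe was called in any of the 9 comparisons.

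The pore-forming genes gave almost no data. Bax had 0 probes in the annotation, and the only Bak1 probe, ILMN_2945835, was detected on 1 of 40 arrays, with log2 signals of 4.60 to 5.70. It lay just outside the test filter with Bcl2 ILMN_2682162, also detected on 1 array. Just inside lay a Cycs probe, ILMN_3155380, detected on 4 arrays.

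Bcl2, the founding inhibitor of the pathway, was the member other than Casp9 with the widest single strain difference, that of DBA against SJL. Its brightest probe, ILMN_1249366, read 7.07, 7.18, 7.25 and 7.18 in DBA, 6.49, 6.76, 6.77 and 6.60 in SJL and 7.09, 6.97, 6.86 and 6.99 in B6. SJL lay below both other strains with no overlap. The probe was higher in DBA than in SJL by 0.52 ± 0.08 log2 units (SE; adjusted p = 0.000642, limma) and lower in SJL than in B6, with a difference of -0.32 ± 0.08 (adjusted p = 0.0159, limma). The second call was lost without B6 mouse 1, when the difference was -0.29 and the adjusted p 0.0558, and by the methods' t-test (adjusted p = 0.0594). Of the 6 nearest measured neighbours of Bcl2 on chromosome 1, only Tnfrsf11a, a TNF receptor gene, was called between strains, higher in DBA than in B6 by 0.92 and in SJL than in B6 by 1.26 (adjusted p = 0.000464 and 2.77e-05, limma).

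A second Bcl2 probe to the same transcript, ILMN_2706514, read 6.06, 6.39, 6.22 and 6.45 in DBA, 5.76, 5.67, 5.80 and 5.92 in SJL and 6.06, 6.17, 6.00 and 5.91 in B6. Only 2 of 4 SJL arrays were detected. It was higher in DBA than in SJL by 0.50 ± 0.09 (SE; adjusted p = 0.00321, limma), and its SJL against B6 difference of -0.25 ± 0.09 did not pass (adjusted p = 0.114, limma). A further tested probe, ILMN_1249021, was detected on 16 arrays and called in none of the comparisons. Of the 5 other Bcl2 probes, 4 were detected on 0 arrays.

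Diablo, the mitochondrial protein that frees caspases from their inhibitors, had 1 probe, ILMN_1221981, detected on all 40 arrays. It read 9.56, 9.35, 9.47 and 9.38 in DBA, 9.08, 9.14, 9.19 and 8.93 in SJL and 9.52, 9.52, 9.66 and 9.48 in B6. Again SJL was the low strain. DBA exceeded SJL by 0.36 ± 0.08 log2 units (SE; adjusted p = 0.00711, limma), with no overlap. SJL lay below B6, with a difference of -0.46 ± 0.08 (adjusted p = 0.00112, limma), also with no overlap, and DBA against B6 differed by -0.10 ± 0.08 (adjusted p = 0.487, limma). Vps33a, the next gene on chromosome 5, moved the other way: its bright probe averaged 10.81 ± 0.04 in SJL and 9.92 ± 0.11 in B6 (SD, n = 4 each), a difference of 0.89 ± 0.07 (SE; adjusted p = 7.81e-07, limma).

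The Bcl2 and Diablo calls depend on the table of numbered arrays. With the authors' value table, the DBA against SJL differences were 0.14, 0.09 and 0.25 for Bcl2 ILMN_1249366, Bcl2 ILMN_2706514 and Diablo, with adjusted p of 0.689, 0.832 and 0.430 by limma. The SJL against B6 difference was then 0.19 for Bcl2 ILMN_1249366, with its sign turned, and -0.10 for Diablo.

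**Figure D3:**
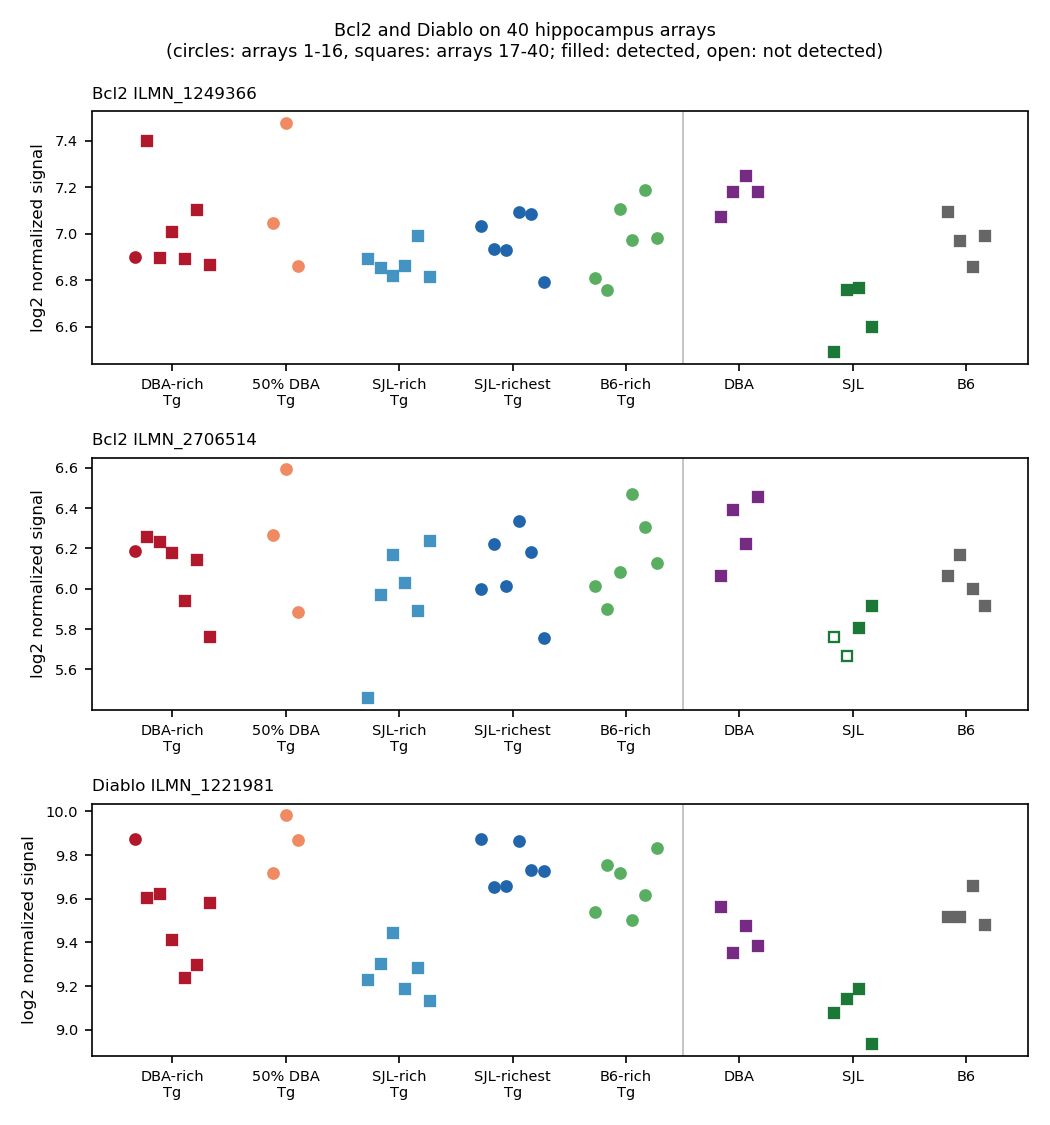
Log2 normalized signal (y axis) of 2 Bcl2 probes and of Diablo in 40 mice by group (x axis), 1 panel per probe. Each point is 1 array; circles are arrays 1 to 16, squares arrays 17 to 40, open points were not detected. Inbred SJL lies below DBA in every panel, and Tg mice of the earlier arrays lie higher for Diablo.

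Counted over the 11 tested probes other than Casp9, inbred strains differed at 0 probes for DBA against B6, 3 for DBA against SJL and 2 for SJL against B6. Over all tested probes, 12.3%, 11.2% and 13.5% were called in these comparisons. The 3 probes of DBA against SJL were all higher and the 2 of SJL against B6 both lower. Without adjustment 3, 6 and 3 of the 11 had p under 0.05 by limma, and the methods' t-test called 0, 3 and 1, without Bcl2 ILMN_1249366 in SJL against B6. The members' median log2 difference was 0.14, 0.28 and -0.13, beside 0.04, 0.01 and 0.03 over all tested probes. The DBA and SJL comparisons share arrays, and probes of 1 gene share a transcript, so these counts are not independent.

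Markers of myelinating cells also moved with strain. All 6 tested oligodendrocyte markers were lower in DBA than in B6, where 0 of the 11 member probes were called. Of these markers, 2 were lower in DBA than in SJL and 1 was lower in SJL than in B6. Over all tested probes, 12.3% were called for DBA against B6, 11.2% for DBA against SJL and 13.5% for SJL against B6. Their summed normalized signal was 22451 to 30523 in DBA, 22726 to 34233 in SJL and 34778 to 40946 in B6. Of the 6 tested excitatory neuron markers, 2 were lower in DBA than in B6, 1 was higher and 1 lower in DBA than in SJL, and SJL against B6 had 1 higher and 2 lower. Of the 5 tested astrocyte markers, 1 was higher in DBA than in B6 and 1 in DBA than in SJL, where their median difference was 0.30 log2 units. Of 5 interneuron markers 1 was higher and 1 lower in DBA than in B6 and 1 was lower in SJL than in B6; of 5 microglia markers 1 was lower in DBA than in B6, and of 3 thalamus markers 1 was lower in DBA than in SJL. No tested marker of endothelium and blood (3) or choroid plexus (5) was called between inbred strains. Apart from the oligodendrocyte list, these lists are short and nothing is read from their counts. The part of these cell types in the Bcl2 and Diablo differences was not tested.

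Across Tg backgrounds none of the 11 probes other than Casp9 was called. DBA-rich against SJL-rich mice gave 0 called of 11 probes (1 with unadjusted p under 0.05, limma; 7.23% called over all probes), and 50% DBA against DBA-free mice also 0 (0 unadjusted; 3.67%). SJL-richest against B6-rich mice gave 0 as well (1 unadjusted; 1.65%). The methods' t-test also called 0 in each. The largest difference in these was 0.24 log2 units, for Bcl2l1 ILMN_2698430, lower in SJL-richest than in B6-rich mice with overlapping arrays (-0.24 ± 0.10, SE; adjusted p = 0.207, limma).

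Bcl2 and Diablo, called between inbred strains, overlapped between Tg backgrounds. Bcl2 ILMN_1249366 lay at 6.86 to 7.40 (median 6.95) in the 6 later DBA-rich mice and at 6.81 to 6.99 (median 6.86) in SJL-rich mice. Its difference was 0.15 ± 0.09 (SE; adjusted p = 0.336, limma). Diablo lay at 9.24 to 9.62 (median 9.50) in the later DBA-rich mice and at 9.13 to 9.44 (median 9.25) in SJL-rich mice, a difference of 0.20 ± 0.08 (adjusted p = 0.184, limma). A test of whether the DBA-rich against SJL-rich difference departs from that of DBA against SJL called 0 of the 11 probes (0.397% of all probes).

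For Diablo the SJL against B6 difference did depart from its Tg counterpart. In the earlier arrays it read 9.66 to 9.87 (median 9.73) in SJL-richest mice and 9.50 to 9.83 (median 9.67) in B6-rich mice, with overlap, a difference of 0.09 ± 0.07 (SE; adjusted p = 0.576, limma). That difference exceeded the inbred one by 0.55 ± 0.10 log2 units (SE; adjusted p = 0.00449, limma), and 1.76% of all probes were called in the same test. None of the other 10 probes was. The inbred arrays are all later and these Tg arrays all earlier, so the transgene, the mixed background and the array set cannot be told apart in it.

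**Figure D4:**
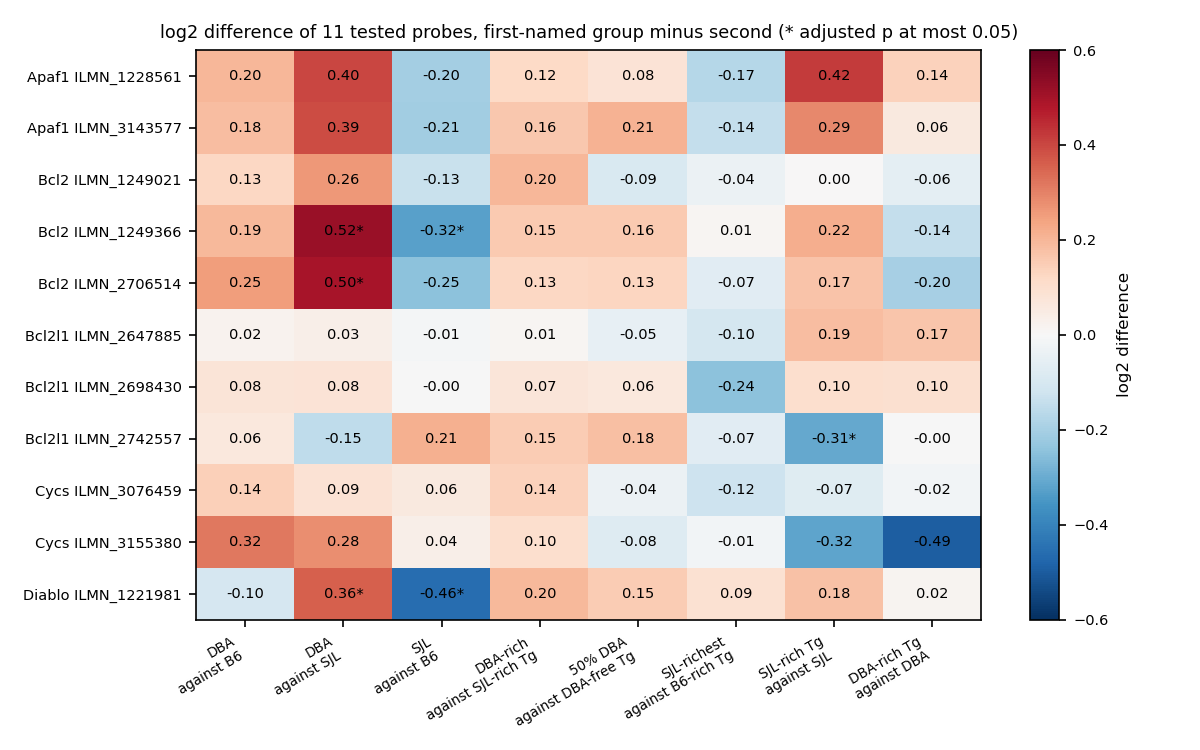
Log2 difference (colour and number) of the 11 tested probes other than Casp9 (y axis) in 8 comparisons (x axis), the group named first minus the second. An asterisk marks an adjusted p of at most 0.05 by limma; the 6 marked cells are Bcl2 and Diablo between inbred strains and 1 Bcl2l1 probe in SJL-rich Tg against SJL.

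Bcl2l1, which encodes Bcl-xL, was detected by all 3 of its probes on all 40 arrays. None was called between inbred strains. One, ILMN_2742557, read 6.43, 6.44, 6.57, 6.65, 6.80 and 6.57 in SJL-rich Tg mice, against 6.67, 7.08, 6.97 and 6.82 in inbred SJL mice, with overlap. It was lower in SJL-rich Tg mice by limma, with a difference of -0.31 ± 0.10 (SE, adjusted p = 0.0366). The transgene and the mixed background cannot be told apart in this comparison. The call was lost without any 1 of 7 of the 10 arrays (SJL-rich mice 1, 2, 3 and 6, and SJL mice 2, 3 and 4), with adjusted p up to 0.132, and with runs of 8 arrays as a block (adjusted p = 0.435, limma).

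The other Bcl2l1 probes, to the same transcript, gave differences of 0.19 and 0.10 in that comparison. The within-array gap to ILMN_2742557 was 0.50 and 0.41 log2 units, with exact two-sided permutation p of 0.0238 and 0.0143, where 0.00476 is the smallest these groups allow. Adjusted over the 64 sister-probe tests (8 pairs in 8 comparisons) both became 0.610, and 0 of the 64 passed. The differences of the 3 Bcl2l1 probes in SJL-rich Tg against SJL did not share a sign. Among the nearest neighbours of Bcl2l1 on chromosome 2, Foxs1 was called in that comparison, at -0.92 ± 0.18 (SE, adjusted p = 0.00189, limma). Pdrg1 averaged 4.59 ± 0.13 in SJL and 9.21 ± 0.05 in B6 (SD, n = 4 each), without a Bcl2l1 probe being called between these strains. Probes of H13 were called there in both directions, at 0.32 and -0.44 for SJL against B6 (adjusted p = 0.0387 and 0.0255, limma).

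Of Tg against inbred mice, 1 of 11 probes was called for SJL-rich Tg against SJL, beside 15.9% of all probes (6 unadjusted, limma; 0 by the methods' t-test), and 0 for DBA-rich Tg against DBA, beside 1.87% (1 unadjusted, limma; 0 by the methods' t-test). With runs of 8 arrays as a block, the first comparison called 0 members and 15 of 13589 probes in place of 2164. In both comparisons the transgene and the mixed background cannot be told apart. Cycs, the gene of cytochrome c, had the largest uncalled difference: ILMN_3155380 read 4.83 to 5.42 (median 5.14) in the later DBA-rich Tg mice, against 5.44 to 5.94 (median 5.57) in DBA, with no overlap (-0.49 ± 0.14, SE; adjusted p = 0.0638, limma). It was detected on 1 of 6 and 2 of 4 of these arrays, and was called without DBA-rich mouse 4 or 6 (adjusted p = 0.0460 and 0.0467, limma). Its sister probe ILMN_3076459, detected on all 40 arrays at 6.69 to 7.28, differed by -0.02 ± 0.08.

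Within background and array set, log10 Abeta40 had no called slope among the 11 probes or among all 13589 (0%; 0 of the 11 with unadjusted p under 0.05, limma). The largest member slope other than that of Casp9 was -0.12 ± 0.12 log2 units per log10 unit, for Bcl2 ILMN_1249366.

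Levels of several member probes differed between the array sets; these values are given without a test, and the probes shown were picked after their values were seen. Bcl2 ILMN_1249021 was detected on 0 of the 16 earlier arrays and on 16 of the 24 later ones, averaging 4.84 ± 0.23 and 5.63 ± 0.22 (SD). Cycs ILMN_3155380 averaged 4.82 ± 0.19 on earlier and 5.26 ± 0.29 on later arrays, and Cycs ILMN_3076459 6.84 ± 0.11 and 7.03 ± 0.13. Bcl2l1 ILMN_2647885 ran the other way at 7.39 ± 0.15 on earlier and 7.07 ± 0.17 on later arrays, as did Diablo at 9.74 ± 0.13 and 9.36 ± 0.19. DBA-rich mouse 1, on an earlier array, had Diablo at 9.88 and the 6 later DBA-rich mice 9.24 to 9.62. All earlier mice are transgenic and their backgrounds differ from the later ones, so the shift by array set and the groups cannot be fully told apart.

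**Figure D5:**
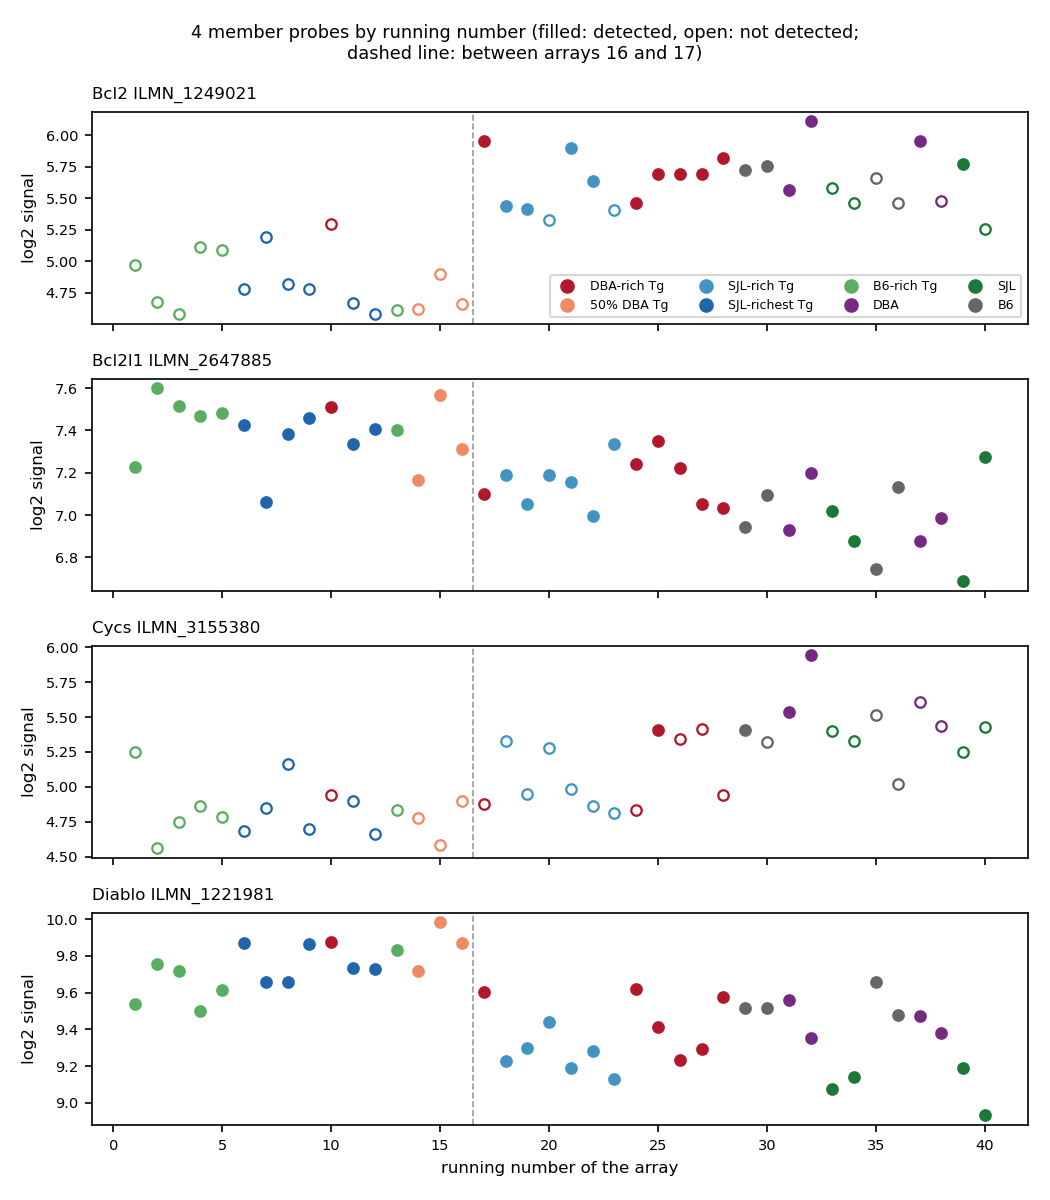
Log2 normalized signal (y axis) of 4 member probes against the running number of the array (x axis), coloured by group; open points were not detected and the dashed line lies between arrays 16 and 17. Bcl2 ILMN_1249021 and Cycs ILMN_3155380 are lower, and Bcl2l1 ILMN_2647885 and Diablo higher, on arrays 1 to 16.

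The wider pathway was read from 67 genes in 7 lists, of which 41 had a tested probe, each taken by its brightest. For DBA against B6, 3 rose and 3 fell, beside 12.3% called over all probes, and for DBA against SJL 1 rose and 3 fell, beside 11.2%. For SJL against B6, 4 rose and 0 fell, beside 13.5% (889 probes higher and 952 lower). These shares lie near those over all probes, so nothing is read from the counts, and the falls in DBA include Atf4, which was known to be low there. Among BH3-only genes, whose proteins trigger the pathway, 7 of 8 were measured: Bcl2l11, which encodes Bim, was higher in DBA than in B6 by 0.49 ± 0.10 and than in SJL by 0.57 ± 0.10 (SE; adjusted p = 0.00405 and 0.00136, limma). Pmaip1, which encodes Noxa, was lower in DBA than in SJL (adjusted p = 0.0489, limma), but was detected on 0 of 4 DBA arrays and 1 of 4 SJL arrays.

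Among other BCL2 family genes, 6 of 9 were measured, 2 fell in DBA against B6 and 1 in DBA against SJL, beside 12.3% and 11.2% called over all probes. Bok, a pore-forming relative of Bax and Bak1, averaged 10.48 ± 0.10 in DBA, 10.94 ± 0.21 in SJL and 10.97 ± 0.13 in B6 (SD, n = 4 each). DBA was lower than both, with log2 differences of -0.49 ± 0.11 against B6 and -0.47 ± 0.11 against SJL (SE; adjusted p = 0.00704 and 0.0109, limma). Bnip3l, a mitochondrial receptor for mitophagy, was lower in DBA than in B6, with a difference of -0.22 ± 0.07 (adjusted p = 0.0448, limma).

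Of other mitochondrial factors, 10 of 13 were measured, 1 rose in DBA against B6 and 4 rose in SJL against B6, beside 12.3% and 13.5% called over all probes. Vdac2, an outer membrane channel, averaged 10.30 ± 0.05 in DBA, 10.35 ± 0.10 in SJL and 9.73 ± 0.04 in B6 (SD, n = 4 each). SJL exceeded B6 by 0.62 ± 0.06 (SE; adjusted p = 1.89e-05, limma). Ppif, Htra2 and Aifm1 were higher in SJL than in B6 by 0.22, 0.22 and 0.29 (adjusted p = 0.0355, 0.0439 and 0.0439, limma); Htra2 and Aifm1 encode further proteins that mitochondria release in cell death.

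Among stress regulators, 7 of 12 were measured, and Atf4, the transcription factor of the integrated stress response, had the widest strain difference. It read 5.13 to 5.88 in DBA (1 of 4 detected), 9.61 to 10.00 in SJL and 9.80 to 9.83 in B6. The low Atf4 signal in DBA was known from earlier results of these arrays when the list was made, so its levels are described without a test. Against the lowest detected signal, DBA was at least 16.1-fold lower than B6 and at least 15.6-fold lower than SJL. Tg mice with 50% DBA lay at 8.08 to 8.35 and the earlier DBA-free Tg mice at 8.92 to 9.73, with no overlap, and DBA-rich mice ranged from 5.16 to 8.95 (5 of 7 detected).

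The other lists held few calls. Of the apoptosome and initiator partners, 5 of 8 were measured, and the chaperone gene Hsp90aa1 was higher in DBA than in B6 by 0.33 ± 0.09 (SE; adjusted p = 0.0259, limma; 3 of 4 B6 arrays detected). It lay near the background in the later Tg mice. There it was detected on 2 of 6 SJL-rich Tg arrays against 3 of 4 SJL arrays, and on 3 of 6 later DBA-rich Tg arrays against 4 of 4 DBA arrays. In the earlier set it was detected on 3 of 3 arrays with 50% DBA, 5 of 6 SJL-richest and 1 of 6 B6-rich Tg arrays. Against the lowest detected signal it was at least 1.37-fold lower in SJL-rich Tg than in SJL mice and at least 1.55-fold lower in DBA-rich Tg than in DBA mice (adjusted p = 0.000953 and 0.000196, limma). Of the executioner caspases and nuclease genes, 5 of 8 were measured and 0 were called between inbred strains. In Tg mice Parp1, an executioner substrate, was lower in DBA-rich than in SJL-rich mice (-0.21 ± 0.06, SE; adjusted p = 0.0478, limma). Acin1, a chromatin condensation factor, was higher in 50% DBA than in DBA-free Tg mice by 0.53 ± 0.14 (SE; adjusted p = 0.0469, limma). It was lower in SJL-rich Tg than in SJL mice (-0.64 ± 0.12) and in DBA-rich Tg than in DBA mice (-0.50 ± 0.12; adjusted p = 0.00161 and 0.0336, limma). Vdac2 and Aifm1 were also lower in SJL-rich Tg than in SJL mice, by log2 differences of -0.32 and -0.34, and the death receptor adaptor gene Fadd was higher by 0.46 (adjusted p = 0.0183, 0.00590 and 0.00762, limma). Of the inhibitors of apoptosis, 1 of 9 was measured and 0 were called in all 9 comparisons. SJL-richest against B6-rich Tg mice gave 0 calls in all 41 genes, as did the Abeta40 slope. For SJL-rich Tg against SJL 1 rose and 4 fell, beside 15.9% called over all probes, and for DBA-rich Tg against DBA 0 and 2, beside 1.87%. For DBA-rich against SJL-rich Tg 0 rose and 1 fell (7.23%), and for 50% DBA against DBA-free Tg 1 and 1 (3.67%). Nothing is read from these counts. In Tg against inbred mice the transgene and the mixed background cannot be told apart.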

How the data were processed

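Per the file headers, the deposited non-normalized table holds the authors' signal intensity and a detection p-value per probe and array. Intensities fall below 0, so background was already subtracted. The detection score is near 1 for bright probes and was read as 1 minus the p-value. The authors' value table is linear intensity, with unstated scaling. The 40 arrays were normalized jointly by neqc in limma 3.58.1 (R 4.3.3, statmod 1.5.0; normexp from detection p-values, offset 16, quantile, log2). Each comparison was fitted by lmFit and eBayes over 13589 probes, calls were made at a Benjamini-Hochberg adjusted p of 0.05, and the fit was checked on simulated data. Strain pairs shared a fit of 12 inbred arrays. DBA-rich against SJL-rich Tg used 12 later arrays. For 50% DBA against DBA-free Tg and SJL-richest against B6-rich Tg 15 earlier arrays were used, and for Tg against inbred 24 later arrays. Interaction tests were added after seeing the data, each fitted on 24 arrays. The DBA-rich against SJL-rich one used the later arrays, and the SJL-richest against B6-rich one the inbred arrays with those 2 backgrounds. Sister probes were compared with exact permutation tests. The platform annotation names 1 gene for 23978 probes, no gene for 1719 and several for 0; 23962 found a current symbol through Entrez. Gene order came from RefSeq on GRCm38.p6. Named were all member probes, called genes of the wider lists (up to 4 each way), 3 neighbours each side of Casp9 and called members, and the 5 probes most like Casp9. Members and lists were chosen with earlier results of these data known. Replicates are separate mice and pair nothing. The number of arrays limits precision.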

Additional observations from a re-analysis of the deposited data

Results flagged for a closer look

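One value stood far from its group. Bcl2l1 ILMN_2647885 read 7.06 in SJL-richest Tg mouse 2 (array 7), against 7.34 to 7.46 in the other 5 mice of that background. It was the only one among 84 groups of 4 to 7 mice looked at; chance gives about 1 in 20, so 1 is fewer than chance alone would give.

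The Diablo contrast of SJL-richest with B6-rich Tg mice exceeded that of SJL with B6 inbred mice by 0.55 ± 0.10 log2 units (SE; adjusted p = 0.00449, limma), as given above. The array set is confounded with it.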

How the results depend on the processing

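No paired analysis was possible because replicate numbers follow sample order and pair nothing. Direction and call of the member counts held under every setting run for DBA-rich against SJL-rich (20 settings), 50% DBA against DBA-free (23), SJL-richest against B6-rich (19) Tg mice, and the Abeta40 slope (35); each stayed at 0. The sister-probe count was 0 in both settings run, but the smallest exact p these groups allow leaves little room for a call after adjustment over 64 tests, so nothing is read from it. With the authors' value table the count was 0 for DBA against SJL (3 with the table of numbered arrays), 0 for SJL against B6 (2) and 0 for SJL-rich Tg against SJL (1). The methods' t-test gave 1 for SJL against B6 and 0 for SJL-rich Tg against SJL, and runs of 8 arrays as a block gave 0 for SJL-rich Tg against SJL. Leaving out 1 array at a time gave 0 to 1 for DBA against B6 (1 without DBA mouse 1, Bcl2 ILMN_2706514), 3 to 4 for DBA against SJL (4 when Apaf1 ILMN_1228561 or ILMN_3143577 joined, without DBA mouse 4 or SJL mouse 4), 1 to 2 for SJL against B6, 0 to 1 for SJL-rich Tg against SJL and 0 to 1 for DBA-rich Tg against DBA. With the value table the inbred arrays sit in other strains. The sign then turned for Bcl2 ILMN_1249366 in SJL against B6 (0.19) and for Casp9 in DBA-rich Tg against DBA (-0.35, against 2.05). Casp9 moved in the comparisons with SJL too, since SJL then held intensities of 6.6 and 13.8, below all B6 arrays (729.6 to 997.5). The largest uncalled member difference in any setting was 2.83 log2 units for SJL against B6 and 2.94 for SJL-rich Tg against SJL. Casp9 in DBA against B6 ran from -5.60 (quantile normalization) to -2.89 (value table).

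Over all tested probes, the value table called 75 (1672 with the numbered table) for DBA against B6, 93 (1523) for DBA against SJL, 0 (1841) for SJL against B6 and 157 (254) for DBA-rich Tg against DBA. Runs as a block called 310 (982) for DBA-rich against SJL-rich, 255 (499) for 50% DBA, 127 (224) for SJL-richest, 15 (2164) for SJL-rich Tg against SJL and 157 (254) for DBA-rich Tg against DBA. The methods' t-test called 16 (224), 1291 (2164) and 51 (254) for SJL-richest, SJL-rich Tg against SJL and DBA-rich Tg against DBA. Probes detected on all 40 arrays gave 654 (982) for DBA-rich against SJL-rich and 1442 (2164) for SJL-rich Tg against SJL, where fewer probes were tested; no filter gave 107 (224) for SJL-richest, and arrays 17 to 24 alone 341 (982) for DBA-rich against SJL-rich. Other causes were not tested. The block could not be fitted for the Abeta40 slope and was not run. Signals near background limit Bak1, 2 Casp9 probes and 5 Bcl2 probes.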
